A study of Mus musculus with 30 samples.

Results

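Fat genes were followed through lung RNA of WT and Zmpste24-/- mice given saline or bleomycin. The 10 genes were Ucp1 and Cidea, which mark brown fat, and Cidec, Adipoq, Plin1, Car3, Cfd, Retn, Lep and Fabp4, which are expressed in fat in general. The genes were chosen by results of these same arrays that were already known, among them a high Ucp1 level in 3 arrays of young Zmpste24-/- saline lungs, so their levels in young Zmpste24-/- saline lungs are a description and carry no test. Each gene was read from the probe set that names it alone, selected on the highest mean log2 level over the 30 arrays. Of the 10 genes, 9 had such a probe set among the 22180 genes measured in this way. Cfd was not analysed here. Only Car3 had a second probe set of its own, which read lower (mean log2 level 5.64 against 8.21) and followed the first over the 30 arrays with r = 0.91.

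The study asked how lungs of mice that age fast respond to bleomycin, a drug used to provoke lung fibrosis, by comparison with naturally aged WT lungs. All mice were c57BL/6, and all lungs were taken 21 days after a single dose of bleomycin or vehicle into the airway. RNA of whole lung was hybridized to Affymetrix arrays in 2 sets of 15, with 3 arrays in each of 10 groups. Set 1 held Zmpste24-/- mice of 16 weeks given saline or bleomycin, Zmpste24-/- mice of 7 weeks given saline, and WT (Zmpste24 +/+) mice of 16 weeks given saline or bleomycin. Set 2 held WT mice of 7 weeks given saline, WT mice of 82 weeks given saline or bleomycin, and Zmpste24-/- mice of 7 weeks given saline or bleomycin. The WT mice of 16 weeks are called young in one label and old in another, so they are named by their age here. By design Zmpste24-/- mice lack the gene in every cell type, not in lung cells alone.

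Brown adipocytes burn fatty acids for heat. Ucp1, the uncoupling protein of their mitochondria, lets protons return across the inner membrane without making ATP, and Cidea is a protein of their lipid droplets. White adipocytes store triglyceride in a single large droplet coated by Plin1 (perilipin) and enlarged by Cidec, and they release the hormones Adipoq (adiponectin), Lep (leptin) and, in mice, Retn (resistin). Car3 is a carbonic anhydrase abundant in fat, slow skeletal muscle and liver. Fabp4 carries fatty acids in adipocytes and is also made by capillary endothelium and macrophages. Brown and white fat lie in the mediastinum, beside the large airways, the vessels and the heart. Zmpste24 trims prelamin A, a protein of the nuclear lamina, and mice without it are known to lose fat with age.

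Array medians over all 41345 probe sets ran from 5.95 to 6.19 on the log2 scale. Zmpste24 itself read 7.93 to 8.68 in the 15 WT arrays and 5.29 to 7.93 in the 15 arrays labelled Zmpste24-/-. In 3 arrays labelled young Zmpste24-/- saline it lay near the WT levels, at 7.55 in replicate 2 of set 1 and at 7.60 and 7.93 in replicates 2 and 3 of set 2, and differences taken from these arrays are given with and without them. Replicate 2 of set 1 correlated best with replicate 3 of set 2 (r = 0.991 over all genes), which in turn correlated best with replicate 2 of set 2 (r = 0.994). Arrays of differently labelled groups matched as closely, such as replicate 3 of 16-week with replicate 3 of 7-week WT saline lungs (r = 0.993). Replicate 1 of the former and replicate 2 of the latter matched with r = 0.992. In both of these WT pairs each array was the best match of the other. No label ties an array to a mouse, so the WT pairs are no measure of how alike separate mice are. It is thus not certain that the 3 arrays come from 3 separate mice, nor that the arrays of these WT groups do. Replicate 3 of the 16-week Zmpste24-/- saline group stood apart from all other arrays, with a mean r of 0.944 against 0.968 to 0.981 for the other arrays. It read 9.86 for Xist, a marker of female tissue, against 4.68 and 4.21 in replicates 1 and 2 of its group. Xist was 4.3 to 4.6 in 82-week WT saline, 4.2 to 4.8 in 16-week WT saline and 4.3 to 4.5 in 16-week Zmpste24-/- bleomycin lungs. The part of sex in differences taken with this array was not tested.

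Promoter sequences of RefSeq (build GRCm38.p6) are shown for 4 genes, for Ucp1, the brown gene that stood out, and for the 3 general fat genes whose mean is used further on. Each run holds the 250 bases before the annotated start, 5′ to 3′ on the strand of the gene, with motif matches in capitals. Ucp1 lies at chr8:83290098-83290347 on the plus strand, Adipoq at chr16:23146286-23146535 on the plus strand, Plin1 at chr7:79732777-79733026 on the minus strand, and the downstream one of a pair of starts of Cidec at chr6:113434765-113435014 on the minus strand.
Ucp1: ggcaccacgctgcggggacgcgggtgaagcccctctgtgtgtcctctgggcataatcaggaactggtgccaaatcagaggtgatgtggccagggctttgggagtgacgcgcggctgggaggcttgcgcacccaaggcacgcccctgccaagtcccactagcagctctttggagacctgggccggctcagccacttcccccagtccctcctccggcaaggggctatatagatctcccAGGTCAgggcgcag
Adipoq: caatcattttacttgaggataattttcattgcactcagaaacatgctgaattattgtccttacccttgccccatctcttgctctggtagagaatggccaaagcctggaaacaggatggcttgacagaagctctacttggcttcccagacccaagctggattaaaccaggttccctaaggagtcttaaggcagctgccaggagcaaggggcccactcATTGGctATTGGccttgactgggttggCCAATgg
Cidec: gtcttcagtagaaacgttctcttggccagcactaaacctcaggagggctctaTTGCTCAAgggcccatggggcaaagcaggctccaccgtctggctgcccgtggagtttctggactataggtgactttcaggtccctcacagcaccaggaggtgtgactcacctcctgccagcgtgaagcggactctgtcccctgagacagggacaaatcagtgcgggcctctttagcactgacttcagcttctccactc
Plin1: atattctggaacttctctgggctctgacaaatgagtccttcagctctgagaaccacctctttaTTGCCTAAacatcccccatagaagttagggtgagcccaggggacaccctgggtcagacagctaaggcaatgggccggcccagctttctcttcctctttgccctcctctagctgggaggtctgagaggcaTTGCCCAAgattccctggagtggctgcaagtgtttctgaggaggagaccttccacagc
The capitals mark AGGTCA, the half-site read by many nuclear receptors, in Ucp1, TTGCNNAA, a core read by C/EBP factors, in Cidec and Plin1, and CCAAT in Adipoq, all searched on both strands. AGGTCA lies in 14.02% of all 32851 promoters of this length, TTGCNNAA in 9.56% and CCAAT in 33.9%. Of 8 promoters taken for the fat genes, AGGTCA lay in 1, TTGCNNAA in 3 and CCAAT in 1. The upstream start of Cidec and the promoters of Retn and Cfd, not shown, held no match. The TATA box letters TATAAA, which are found in 12.4% of all promoters, were in none of the 8 promoters taken. These belong to 7 of the 10 genes. No promoter of Cidea, a brown gene, or of Car3 or Fabp4 was among the 8, so the counts do not cover these genes. A match is a run of letters in this window and no more than that.

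Ucp1 was high in 3 of 30 arrays. Young Zmpste24-/- saline lungs read 6.01, 8.78 and 5.57 in set 1 and 5.46, 8.72 and 9.13 in set 2, in the order of replicates 1 to 3. The 3 high arrays are the same 3 in which Zmpste24 was near WT levels. All other 27 arrays lay between 4.91 and 6.42 with a median of 5.34, so the lowest of the high arrays stood 2.30 above the next one on the log2 scale, and the other young Zmpste24-/- saline arrays lay within the range of the other groups.

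**Figure D1:**
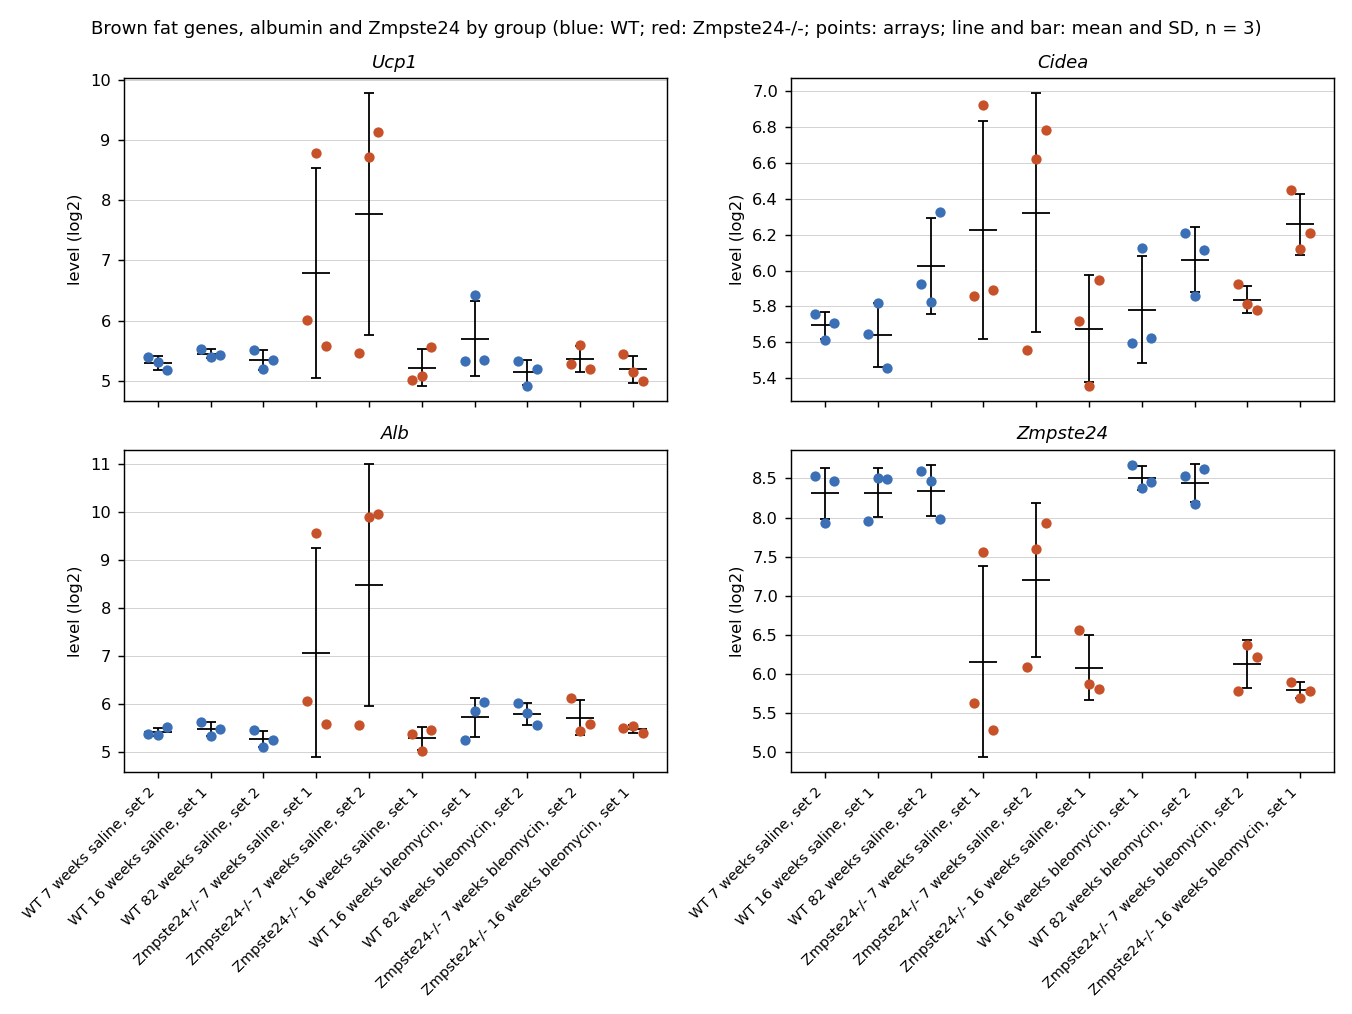
Levels (log2, vertical axis) of Ucp1, Cidea, albumin (Alb) and Zmpste24 in the 10 groups on the horizontal axis, with 1 point per array and the mean and SD of each group of 3. The same 3 arrays of young Zmpste24-/- saline lungs hold Ucp1 at 8.72 to 9.13, Cidea at 6.62 to 6.93 and Alb at 9.57 to 9.95, and their Zmpste24 level of 7.55 to 7.93 lies near the WT arrays.

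In the other groups Ucp1 read 5.40, 5.31 and 5.17 in WT lungs of 7 weeks, 5.52, 5.39 and 5.44 in saline WT lungs of 16 weeks, and 5.51, 5.19 and 5.34 in saline WT lungs of 82 weeks. Saline Zmpste24-/- lungs of 16 weeks read 5.01, 5.08 and 5.56. These groups overlapped with each other, and Ucp1 lay below the array's own median over the 22180 genes in 27 of 30 arrays, all but the 3 high ones. That median is not the one over all probe sets given further above. After bleomycin it read 5.33, 6.42 and 5.35 in 16-week WT lungs, 5.32, 4.91 and 5.19 in 82-week WT lungs, 5.28, 5.60 and 5.19 in 7-week Zmpste24-/- lungs and 5.44, 5.14 and 4.99 in 16-week Zmpste24-/- lungs. Only replicate 2 of the 16-week WT bleomycin group lay clear of its neighbours there. By group mean the 2 young Zmpste24-/- saline groups came first (7.77 ± 2.01 in set 2 and 6.79 ± 1.74 in set 1, SD, n = 3), and each had at least 1 array within the range of the remaining 8 groups, whose means ran from 5.14 to 5.70.

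Cidea was highest in the same 3 arrays, at 6.93 in set 1 and at 6.62 and 6.79 in set 2. The other 27 arrays lay between 5.36 and 6.45. The gap from the lowest of the 3 to the next array was 0.18, against 2.30 for Ucp1. Cidea followed Ucp1 with r = 0.74 over the 30 arrays and with r = 0.12 over the 27 arrays left without these 3, so the relation rested on the 3 arrays. The second group by mean Cidea was 16-week Zmpste24-/- after bleomycin (6.26 ± 0.17, SD, n = 3), in which Ucp1 was low.

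Other genes of the brown fat list were measured beside them. With the list of 26 brown fat genes, 21 genes other than Ucp1 were measured and 5 of them followed Ucp1 with r over 0.6 across the 30 arrays, against 1.44% of all genes. Besides Cidea these were Cox8b, a cytochrome c oxidase subunit of heart, muscle and brown fat (r = 0.77), Ebf2, a transcription factor of brown fat (r = 0.69), Otop1, a proton channel (r = 0.67), and Acot11, an acyl-CoA thioesterase (r = 0.60), named after their values were seen. Without the 3 arrays the same r values ran from 0.11 to 0.49. The median r of the 21 genes over the 30 arrays was 0.26, and some lay below 0, among them Ppargc1a (-0.02), Plin5 (-0.06) and Fabp3 (-0.21). Lists of other tissues held larger shares past the same r with Ucp1, at 12 of 14 skeletal muscle and 7 of 12 squamous epithelium genes. A liver list held 13 of 26. It was written after the genes most like Ucp1 were seen, so its share is a description only. The mean level of the brown fat list was 6.67 to 6.74 in the 3 arrays and 6.31 to 6.54 in the other 27. The general fat list did likewise, at 7.94 to 7.97 against 7.29 to 7.82.

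Genes of other organs moved with Ucp1 in these arrays. Alb, the albumin made by liver, read 9.57, 9.89 and 9.95 in the 3 arrays and 5.01 to 6.11 in the other 27. The 6 genes most like the mean of Ucp1 and Cidea over the 30 arrays were all liver genes, namely Alb (r = 0.96), Ahsg (r = 0.91), Apoa1 (r = 0.87), Pzp (r = 0.86), Fgb (r = 0.85) and Serpina1c (r = 0.84). Of 26 measured genes of a liver list written after this was seen, 13 followed that mean with r over 0.6, against 0.861% of all genes, and the list mean was 6.03 to 6.07 in the 3 arrays and 5.02 to 5.46 elsewhere. The list includes the 6 genes, so its share was in part fixed by them. Without the 3 arrays the 6 r values ran from -0.04 to 0.37.

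Skeletal muscle and squamous epithelium genes were high in the 3 arrays too, but not in them alone. Myh1, the heavy chain of fast muscle myosin, read 7.98 to 8.93 in the 3 arrays, and Krt4, a keratin of squamous epithelium, read 11.40 to 11.68. Both were as high in replicate 3 of set 1 and replicate 1 of set 2, where Myh1 reached 8.77 and Krt4 reached 11.82 while Ucp1 was 5.57 and 5.46. In the 6 young Zmpste24-/- saline arrays the skeletal muscle list mean was 5.48 in replicate 1 of set 1 and 7.38 to 7.64 in the other 5. Xist, which marks female tissue, was 9.64 to 10.29 in the 3 arrays and 4.16 to 4.19 in the other 3 arrays of these groups. Y-linked Eif2s3y was 5.66 in replicate 2 of set 2, between the low and the high arrays. In replicate 1 of the young Zmpste24-/- bleomycin group both Xist (9.18) and Eif2s3y (7.76) were high. In that group Xist and Eif2s3y read 4.63 and 8.35 in replicate 2, and 10.19 and 4.47 in replicate 3. The part of liver, muscle and squamous RNA in the level of the fat genes was not tested. In whole lung RNA, fewer cells of a type and less RNA per cell cannot be told apart.

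**Figure D2:**
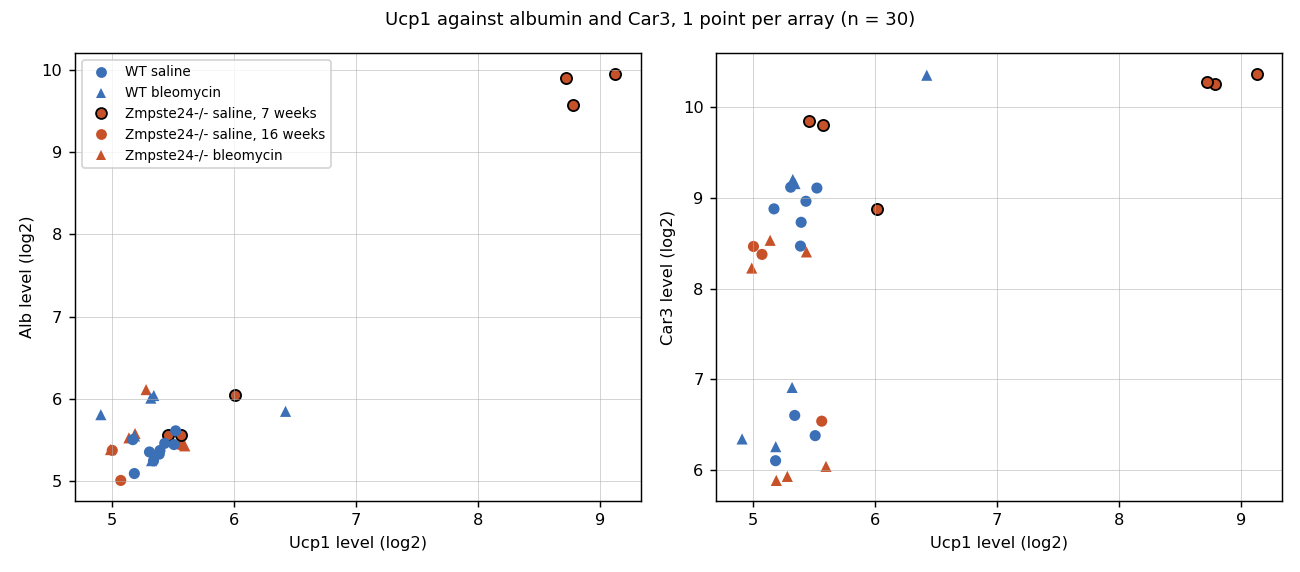
Each point is 1 array (n = 30), with the Ucp1 level on the horizontal axis and the level of Alb (left) or Car3 (right) on the vertical axis, all in log2. The 3 arrays with Ucp1 above 8.72 are also the 3 with Alb above 9.57, whereas Car3 spans 5.88 to 10.36 among the 27 arrays with Ucp1 at 4.91 to 6.42.

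Car3 gave another pattern, with the widest range of the 9 genes (5.88 to 10.37). In saline WT lungs it read 8.73, 9.12 and 8.88 at 7 weeks, 9.11, 8.47 and 8.96 at 16 weeks, and 6.38, 6.10 and 6.60 at 82 weeks. The 82-week arrays all lay below the 7-week and 16-week arrays. Young Zmpste24-/- saline lungs read 8.88, 10.26 and 9.81 in set 1 and 9.85, 10.28 and 10.37 in set 2. Zmpste24-/- lungs of 16 weeks read 8.47, 8.38 and 6.54 after saline and 8.40, 8.53 and 8.23 after bleomycin. The array at 6.54 is the one that stood apart from all others.
After bleomycin WT lungs read 9.20, 10.36 and 9.16 at 16 weeks and 6.91, 6.34 and 6.26 at 82 weeks, and 7-week Zmpste24-/- lungs read 5.93, 6.04 and 5.88. The lowest 10 arrays were thus the 82-week WT arrays of both treatments and the young Zmpste24-/- bleomycin arrays, all of set 2, and the one at 6.54. The 7-week saline arrays of set 2 were high. In the order of group means, from 10.17 in young Zmpste24-/- saline lungs of set 2 to 5.95 in young Zmpste24-/- bleomycin lungs, neighbouring groups overlapped except for 16-week WT bleomycin over 7-week WT lungs (9.16 against 9.12 for the nearest arrays) and for 82-week WT saline over young Zmpste24-/- bleomycin lungs (6.10 against 6.04).

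Cidec and Retn had their lowest groups in common with Car3. Cidec read 7.11, 7.47 and 7.03 in young Zmpste24-/- saline lungs of set 1, 7.19, 7.48 and 7.41 in those of set 2, and 6.29, 5.70 and 6.65 in young Zmpste24-/- bleomycin lungs. Retn read 7.33, 7.08 and 7.20, then 7.32, 7.59 and 7.57, and then 6.41, 6.45 and 6.24 in the same 3 groups. For both genes every bleomycin array of these mice lay below every saline array. In 16-week WT lungs Cidec read 6.79, 7.37 and 7.11 after saline and 7.26, 7.64 and 6.69 after bleomycin. Retn read 6.87, 6.80 and 6.73 after saline there and 6.69, 7.82 and 7.29 after bleomycin. The saline and bleomycin arrays of these WT mice overlapped for both genes.

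**Figure D3:**
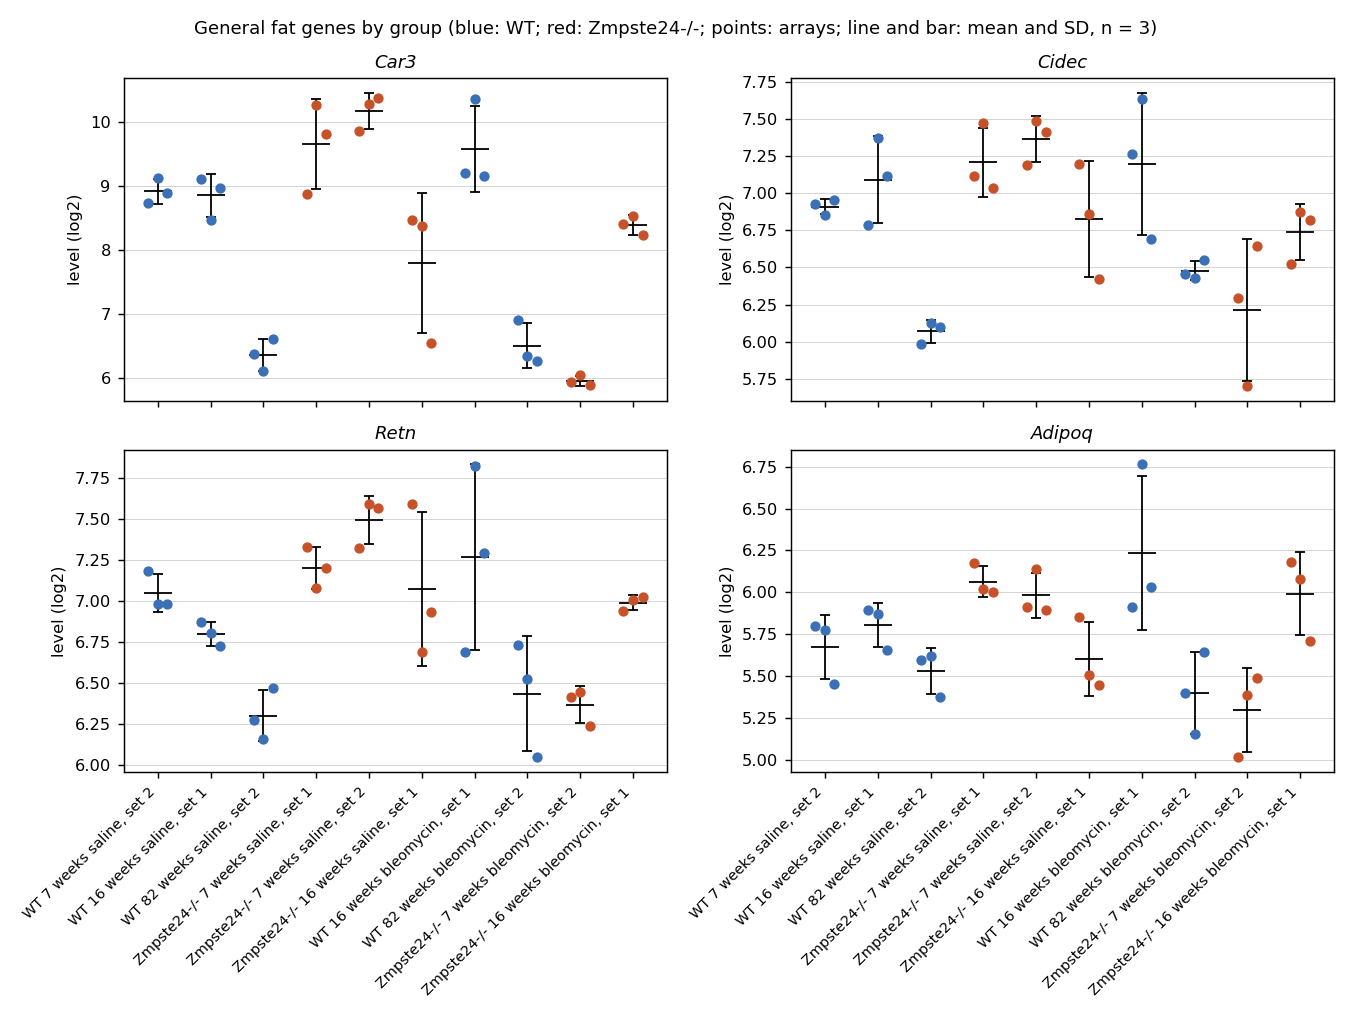
Levels (log2, vertical axis) of Car3, Cidec, Retn and Adipoq in the 10 groups on the horizontal axis, with 1 point per array and the mean and SD of each group of 3. Car3 is lowest in 7-week Zmpste24-/- lungs after bleomycin (mean 5.95) and in 82-week WT lungs after saline (6.36) and bleomycin (6.50), and Cidec and Retn have their lowest 3 means in the same groups.

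In saline WT lungs, which share set 2, 3 of the 9 genes fell from 7 to 82 weeks in limma with Benjamini-Hochberg adjustment over all genes, and none rose. At this threshold 8.12% of all genes were called. Xist read 10.61, 4.45 and 4.56 in the 7-week arrays and 4.58, 4.56 and 4.34 in the 82-week arrays. Sex was thus not balanced between these ages, and its part in the differences was not tested. Car3 fell by 2.55 on the log2 scale (SE 0.37, adjusted p = 4.93e-05). Cidec read 6.93, 6.85 and 6.95 at 7 weeks and 5.98, 6.12 and 6.10 at 82 weeks, with no overlap, and fell by 0.84 (SE 0.22, adjusted p = 0.0149). Retn read 7.18, 6.98 and 6.98 at 7 weeks and 6.27, 6.16 and 6.47 at 82 weeks, again with no overlap, and fell by 0.75 (SE 0.21, adjusted p = 0.0252). Adipoq (-0.14, 95% interval -0.52 to 0.23), Plin1 (-0.35, -0.78 to 0.07), Ucp1 (0.05, -1.24 to 1.34) and the other 3 genes were not called. The wide interval of Ucp1 comes from a spread that the fit shares over all groups, the young Zmpste24-/- saline groups included. Without any 1 of 5 arrays Retn was no longer called (adjusted p up to 0.111), and Cidec was lost without replicate 3 of the 7-week or replicate 1 of the 82-week group (up to 0.0618), whereas Car3 was called under all 15 alternatives.

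The wider fat lists split in this comparison. Of 33 measured general fat genes, a list that holds the fat genes above as well, 7 fell and 2 rose, with a median log2 fold change of -0.14 against 0.01 over all genes. Car3, Cidec and Retn are 3 of the 7 that fell. Slc7a10, an amino acid transporter of white adipocytes, fell by 1.34, and Npr3, the clearance receptor of natriuretic peptides, fell by 1.06. Lpl, the lipase that frees fatty acids from lipoproteins, rose by 1.23. Of 22 brown fat genes 1 fell, Cox8b, by 0.85.
Genes of other cells moved in the same comparison. Of 12 lung capillary endothelium genes 6 fell, among them Ednrb, the endothelin B receptor, by 1.56 and Kdr, a receptor of vascular endothelial growth factor, by 1.13, and the list mean was 9.70 to 9.81 at 7 weeks and 9.23 to 9.25 at 82 weeks. Of 12 cardiac muscle genes 9 fell, and their list mean was 7.75 to 8.49 at 7 weeks and 6.94 to 6.98 at 82 weeks. Of 8 lipofibroblast genes 3 fell and 1 rose. Of 10 alveolar macrophage genes 4 rose, among them Marco, a scavenger receptor (by 1.97), Chil3, a chitinase-like protein (by 1.23), and Itgax, an integrin (by 1.18), and 2 fell, one of which is Cidec itself. The mean of that list without Cidec was 7.92 to 8.40 at 7 weeks and 8.59 to 8.69 at 82 weeks. Whether these cells had a part in the levels of Car3, Cidec and Retn was not tested.

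**Figure D4:**
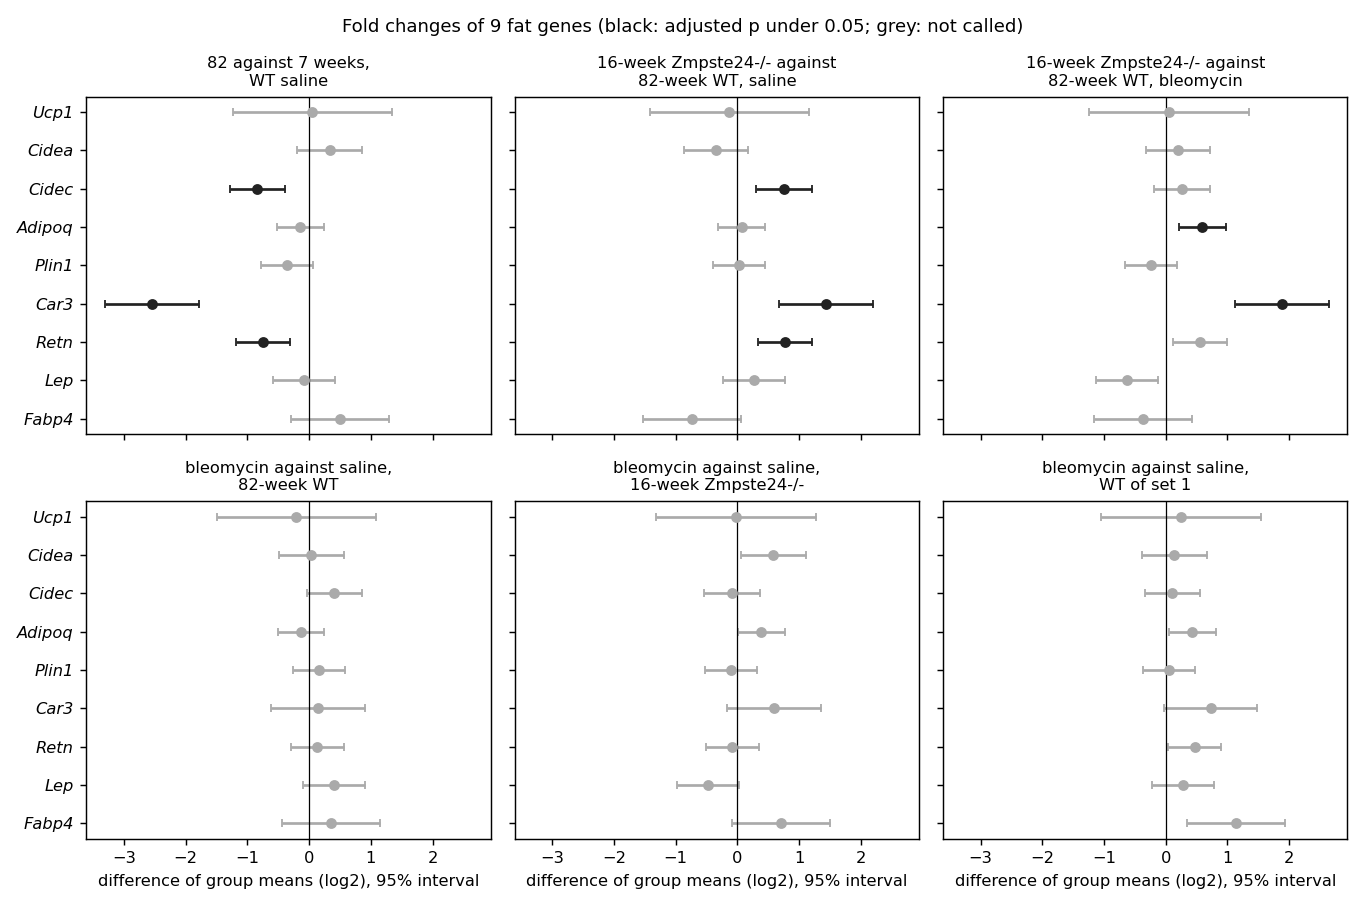
Differences of group means (log2, horizontal axis) with 95% intervals for the 9 fat genes (vertical axis) in 6 comparisons, black where the adjusted p of limma was under 0.05 and grey otherwise. Car3, Cidec and Retn are black with age in WT lungs (-2.55, -0.84 and -0.75) and in the saline comparison of 16-week Zmpste24-/- with 82-week WT lungs (1.43, 0.76 and 0.77), and no gene is black in the lower row, the 3 bleomycin comparisons.

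Zmpste24-/- lungs of 16 weeks were set against WT lungs of 82 weeks, the accelerated against the natural aging of the study. Genotype, age and array set cannot be told apart here, since the Zmpste24-/- arrays are of set 1 and the WT arrays of set 2. The saline comparison shares its 82-week WT arrays with the comparison of ages. After saline 3 of 9 genes were higher in Zmpste24-/- lungs and none lower, with 13.7% of all genes called. Car3 was 1.43 higher (SE 0.37, adjusted p = 0.00983), with an overlap through the array at 6.54, and 2.06 higher without that array (adjusted p = 0.000125). Cidec read 7.20, 6.86 and 6.42 in Zmpste24-/- lungs, all above the 82-week WT arrays, and was 0.76 higher (SE 0.22, adjusted p = 0.0204). Retn read 7.59, 6.69 and 6.93, also clear of the WT arrays, and was 0.77 higher (SE 0.21, adjusted p = 0.0148). In a fit of these 2 groups alone none of the 3 was called (adjusted p = 0.171, 0.139 and 0.180). With single arrays left out, Car3 was no longer called without replicate 2 of either group, Cidec without replicate 1 of either group or replicate 3 of the WT group, and Retn without replicate 1 of the Zmpste24-/- or replicate 2 of the WT group (adjusted p from 0.0504 to 0.0887).
Genes of other cells moved between these saline groups too. Of 12 lung capillary endothelium genes 5 were higher in Zmpste24-/- lungs and none lower, with a median log2 fold change of 0.37 against -0.04 over all genes, among them Ednrb (1.73 higher) and Tmem100 (0.87 higher). Their list mean was 9.88 and 9.90 in Zmpste24-/- lungs, 9.19 in the array that stood apart, and 9.23 to 9.25 in WT lungs. Of 8 lipofibroblast genes 3 were higher and 1 lower (median 0.62). Of 10 alveolar macrophage genes 4 were lower, Marco most (-1.81), and 2 higher, of which Cidec is one. The part of these cells in the levels of Car3, Cidec and Retn was not tested.

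After bleomycin 2 of 9 genes were higher in 16-week Zmpste24-/- than in 82-week WT lungs and none lower, with 14.1% of all genes called. Car3 was 1.89 higher (SE 0.37, adjusted p = 0.000904) with no overlap. Adipoq read 6.18, 6.08 and 5.71 in Zmpste24-/- lungs and 5.40, 5.15 and 5.64 in WT lungs, without overlap, and was 0.59 higher (SE 0.18, adjusted p = 0.0295). Retn (0.56, adjusted p = 0.0799) and Lep (-0.62, adjusted p = 0.0904) missed the threshold, which Retn passed with quantile normalization, median centring or array weights (adjusted p = 0.0460, 0.0313 and 0.0387) and Lep with array weights (adjusted p = 0.0178). Adipoq was no longer called when any of 4 arrays was left out (replicate 1 or 2 of either group). In this comparison 5 of 10 alveolar macrophage genes were lower and none higher, and of 12 lung capillary endothelium genes 1 was higher and 2 were lower, and their part in these levels was not tested.
Of 33 general fat genes 5 were higher and 4 lower in each of both comparisons, and the 5 include Car3, Cidec and Retn after saline and Car3 and Adipoq after bleomycin. After saline Slc7a10 was 1.03 higher and Lpl was lower (-1.15). After bleomycin Npr3 was 1.08 higher and Pnpla2, a triglyceride lipase, 0.90 higher, and Pparg, the transcription factor of adipocyte formation, was lower (-0.90). Of the brown fat list Slc36a2, an amino acid transporter, was 0.80 higher after saline and Acsl5, an acyl-CoA synthetase, was lower after saline (-0.65) and after bleomycin (-0.54).

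Within set 1 genotype can be compared at the same stated age of 16 weeks. No fat gene was called between saline Zmpste24-/- and WT lungs by limma, with 0.00902% of all genes called. Only 1 fat gene passed an unadjusted p of 0.05, a threshold at which the share of all genes was not computed. That gene was Car3 (-1.05, SE 0.37, adjusted p = 0.383). Its difference was -0.43 without the array that stood apart (adjusted p = 0.788).

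Between bleomycin and saline lungs none of the 9 genes was called in 82-week WT lungs (1.01% of all genes called), in 16-week Zmpste24-/- lungs (10.6%) or in 16-week WT lungs (0.721%). By limma 0, 2 and 3 genes passed an unadjusted p of 0.05 in the 3 comparisons. The share of all genes past that unadjusted threshold was not computed, so these counts have no background beside them. In 82-week WT lungs Cidec read 6.46, 6.43 and 6.55 after bleomycin, all above the saline arrays at 5.98 to 6.12, and the difference was 0.41 (SE 0.22, adjusted p = 0.515). In 16-week Zmpste24-/- lungs Cidea read 6.45, 6.12 and 6.21 after bleomycin and 5.72, 5.36 and 5.95 after saline, which do not overlap, and the difference was 0.58 (SE 0.26, adjusted p = 0.145). It was called once the 3 arrays with Zmpste24 near WT were left out of the fit (adjusted p = 0.0299), which narrows the shared spread (SE 0.17) and leaves the difference as it was. Car3 differed by 0.60 between these groups, and by -0.03 without the saline array that stood apart.

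In 16-week WT lungs all 9 genes had higher means after bleomycin, and the differences rested in large part on replicate 2. That array held the highest level over all 30 arrays of Adipoq (6.76), Cidec (7.64), Retn (7.82) and Fabp4 (9.76), with Car3 at 10.36, Plin1 at 6.85 and Ucp1 at 6.42. Its Alb level was 5.85, within the range of the other arrays, and its skeletal muscle and squamous list means were 5.59 and 5.45. Xist read 4.14, 10.52 and 10.33 in replicates 1 to 3 after bleomycin and 4.20 to 4.80 in the saline arrays of these WT mice. Sex was thus not balanced between these groups, and its part in the differences was not tested. Fabp4 was 1.14 higher after bleomycin (SE 0.39, adjusted p = 0.218) and 0.68 higher without replicate 2. Likewise Car3 went from 0.73 to 0.33, Adipoq from 0.43 to 0.17, Retn from 0.47 to 0.19 and Cidec from 0.10 to -0.12 when it was left out.
Between 16-week Zmpste24-/- and 82-week WT lungs no difference of the bleomycin effect was called for the 9 genes in limma (1.39% of all genes called). Lep alone passed an unadjusted p of 0.05 (-0.89, SE 0.35, adjusted p = 0.194), and the share of all genes past that threshold was not computed. Of the general fat list Lpl rose after bleomycin by 1.02 in 16-week Zmpste24-/- and by 0.99 in 16-week WT lungs, and Slc7a10 fell by 1.01 in the former. The difference between the bleomycin effects on Slc7a10 was -1.47 (SE 0.32, adjusted p = 0.0188).

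The comparisons with young Zmpste24-/- saline lungs are given as values alone, and those of set 2 share these saline arrays. Within set 2, these lungs exceeded WT lungs of 7 weeks by 2.48 for Ucp1, 1.36 for Fabp4, 1.26 for Car3, 0.45 for Cidec, 0.45 for Retn, 0.63 for Cidea, 0.31 for Adipoq, 0.27 for Plin1 and 0.15 for Lep. With only the array of low Zmpste24 the same differences were 0.17, 0.38, 0.94, 0.28, 0.27, -0.14, 0.24, -0.05 and -0.25, so those of Cidea, Plin1 and Lep changed sign. After bleomycin, young Zmpste24-/- lungs of the same set had lower means for all 9 genes than the 3 saline arrays, and for 7 of 9 than the array of low Zmpste24. Against the 3 arrays the differences were -4.22 for Car3, -2.41 for Ucp1, -1.33 for Fabp4, -1.15 for Cidec, -1.13 for Retn, -0.68 for Adipoq, -0.48 for Cidea, -0.46 for Plin1 and -0.14 for Lep.
Set against the array of low Zmpste24 alone, they were -3.90 for Car3, -0.11 for Ucp1, -0.35 for Fabp4, -0.97 for Cidec, -0.96 for Retn, -0.62 for Adipoq, 0.28 for Cidea, -0.14 for Plin1 and 0.26 for Lep, so the differences of Car3, Cidec, Retn and Adipoq kept most of their size that of Ucp1 did not, and those of Cidea and Lep changed sign. That array carried skeletal muscle and squamous RNA (list means of 7.53 and 7.98), as did the other 2 arrays of its group. Xist read 4.18 in the array of low Zmpste24 and 9.18, 4.63 and 10.19 in the bleomycin arrays. The part of sex in these differences was not tested. In set 1, 16-week lay below 7-week Zmpste24-/- saline lungs by a difference of -1.86 for Car3, -1.58 for Ucp1 and -1.49 for Fabp4, and of -1.55, -0.58 and -1.17 without the array of set 1 with Zmpste24 near WT. Without the 16-week array that stood apart they were -1.23, -1.75 and -1.23.

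Plin1, Lep and Fabp4 had patterns of their own. Plin1 ranged from 5.82 to 7.08, was highest in replicate 2 of the young Zmpste24-/- saline group of set 2, and was called in none of the 8 tested comparisons. Lep lay below the array's own median over the 22180 genes in 30 of 30 arrays, between 3.96 and 5.44 with group means from 4.35 to 4.97. Adipoq lay below that median in 29 arrays, Cidea in 26 and Plin1 in 24, against 7 for Car3 and for Cidec and 0 for Fabp4, so differences of Lep, Adipoq, Cidea and Ucp1 were read at the dim end of the arrays. Fabp4 read 9.49, 9.30 and 9.59 in the 3 arrays of high Ucp1, and 6.85 to 9.76 in the other 27. The second highest of its levels thus came from a lung with high Ucp1 and the highest from a 16-week WT bleomycin lung with Ucp1 at 6.42.

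**Figure D5:**
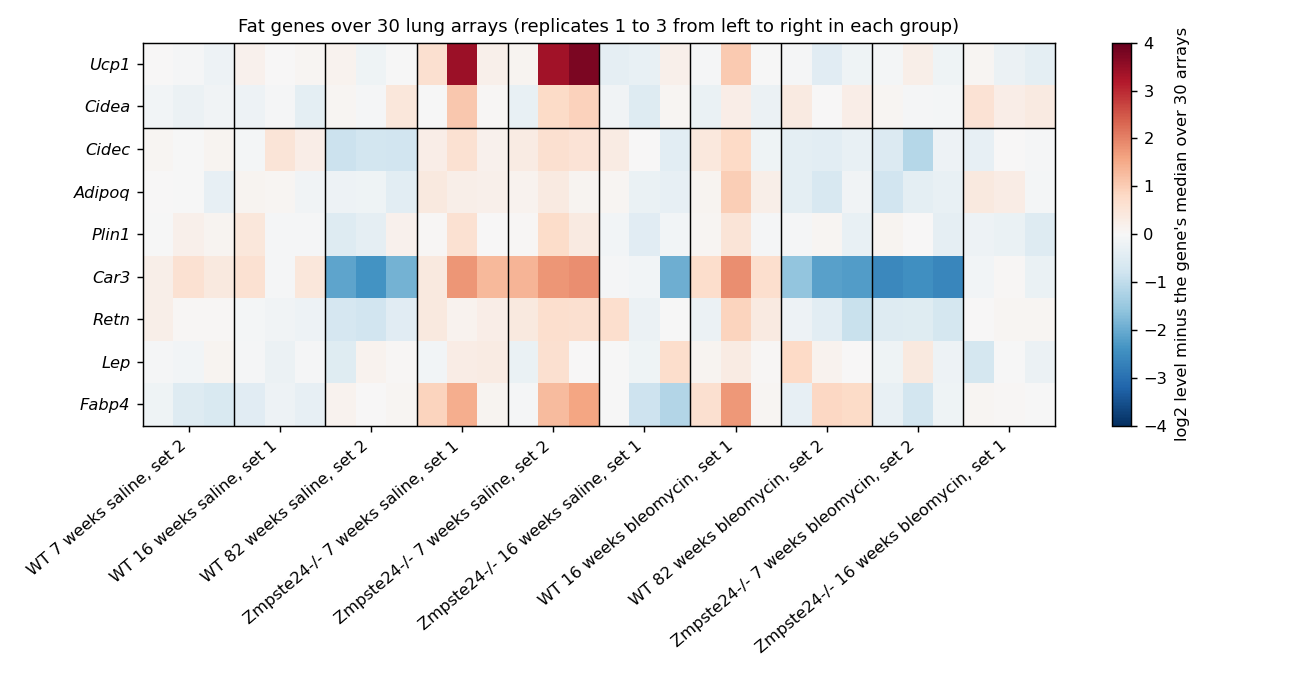
Level of each of the 9 fat genes (rows, brown genes above the line) in each of the 30 arrays (columns, grouped), as the log2 difference from the gene's own median over the arrays, red above and blue below. Ucp1 and Cidea are red in 3 columns of young Zmpste24-/- saline lungs, and Car3 is blue in the columns of 82-week WT lungs and of young Zmpste24-/- lungs after bleomycin.

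Car3, Cidec, Retn and Adipoq followed each other more closely than they followed Ucp1 (r = 0.39 to 0.54). Without the 3 arrays of high Ucp1 their r with Ucp1 ran from 0.26 for Cidec to 0.61 for Adipoq, close to that of Cidec with Adipoq (0.66). As a description over 30 arrays, r was 0.87 for Cidec with Car3, 0.83 for Car3 with Retn, 0.76 for Adipoq with Car3 and 0.74 for Cidec with Retn, and without the 3 arrays of high Ucp1 these were 0.83, 0.82, 0.76 and 0.71. Plin1 followed Ucp1 with r = 0.68 and Car3 with 0.57, and r with Lep was at most 0.44 for any gene. The arrays of a group share their treatment and set, which these values do not remove.
The 6 genes most like the mean of Adipoq, Plin1 and Cidec were Srgap1 (r = 0.85), Thrsp (r = 0.84), a regulator of fatty acid synthesis, Pde5a (r = 0.81), a cGMP phosphodiesterase, Abi3bp (r = 0.78) and Hmcn1 (r = 0.78), proteins of the extracellular matrix, and Cox8b (r = 0.77). They held without the 3 arrays, at 0.70 to 0.81, and 1 of the 6, Thrsp, is of the general fat list and 1, Cox8b, of the brown fat list. Of the lists, 5 of 8 lipofibroblast, 5 of 12 lung capillary endothelium, 5 of 12 cardiac muscle and 7 of 30 general fat genes followed that mean with r over 0.6, against 1.50% of all genes.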

How the data were processed

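The deposited table holds log2 values of 41345 probe sets on 30 arrays. According to the paper and the labels, biotin-labelled RNA was hybridized to Affymetrix arrays in 2 sets and limma was used by the authors. For background correction, normalization and summary the method was not given in the sources used here, so the log2 scale was checked from the range of the values, and they were used as deposited. Probe sets naming 1 gene number 23521, and the brightest per gene left 22180 genes, of which 22139 symbols were found in the RefSeq table.

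The linear model of limma 3.58.1, run in R 4.3.3, took every array and gave each group its mean. Its moderated p-values were adjusted by Benjamini-Hochberg over all genes for each contrast, and genes with an adjusted p under 0.05 count as called. The fit was tested on simulated data. The series design states biological replicates, but no label ties an array to a mouse, and p-values measure the spread between arrays. Precision is limited by 3 arrays per group. Comparisons with young Zmpste24-/- saline arrays were described, not tested. Replicates with the same number did not deviate together, so arrays were not paired.

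The 10 genes and all lists were chosen with earlier results of these data known, and the liver list after the genes most like Ucp1 were seen. Named besides the fat genes were Zmpste24, Xist and Eif2s3y, the 6 genes most like each of 2 means, and up to 4 called genes per list. Myh1, Krt4, Ebf2, Otop1, Acot11, Ppargc1a, Plin5 and Fabp3 were chosen after their values were seen. Other list results are not all printed. Alternatives were 2 stricter thresholds, quantile normalization, median centring, dim genes (mean under 5.2) left out, averaged probe sets per gene, trended robust variance, array weights, a replicate block, fits of the compared groups alone, and arrays left out, one of these after the data were seen. Python 3.11.15, pandas 2.3.3, numpy 2.4.6 and matplotlib 3.10.9 were used.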

Additional observations from a re-analysis of the deposited data

Results flagged for a closer look

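In 6 pairs of comparisons, each for a single gene, the groups within each comparison did not overlap and the differences had opposite signs. The differences between them were not tested. These 6 were picked from all fat genes and pairs of comparisons searched. The share of all genes with such a pattern is not given. The count thus has no background beside it, and how often it arises by chance is not known. All 6 include the young Zmpste24-/- saline arrays, part of which had Zmpste24 near WT levels. Against the bleomycin difference of young Zmpste24-/- lungs, that of Cidec in 82-week WT lungs differed by 1.56 (0.41 against -1.15), that of Adipoq in 16-week WT lungs by 1.11 (0.43 against -0.68) and that of Car3 in 16-week WT lungs by 4.94 (0.73 against -4.22). That of Fabp4 differed by 2.04 in 16-week Zmpste24-/- lungs (0.71 against -1.33) and by 2.47 in 16-week WT lungs (1.14 against -1.33). Without the saline arrays of Zmpste24 near WT, which leaves 1 saline array of low Zmpste24 in that group, the 5 differences were 1.38, 1.05, 4.62, 1.06 and 1.49, with the young Zmpste24-/- value of Fabp4 at -0.35. Without replicate 2 of the 16-week WT bleomycin group the WT values of Adipoq, Car3 and Fabp4 were 0.17, 0.33 and 0.68, and without the 16-week Zmpste24-/- saline array that stood apart the value of Fabp4 there was 0.45. The difference of Fabp4 with age was 0.50 in WT and -1.49 in Zmpste24-/- lungs, 1.99 apart, and 1.67 apart without the array of Zmpste24 near WT.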

How the results depend on the processing

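Over 72 tested fold changes, 626 of 640 values under the alternatives other than leaving out an array, and 468 of 486 with an array left out, kept their direction and side of the threshold, and none that was called under either setting changed sign. Of 90 values of described differences under the alternatives, 15 moved by more than the spread between arrays. Of the 9 genes, 1 was called for bleomycin in 16-week Zmpste24-/- lungs without the 3 arrays with Zmpste24 near WT, against 0. With age in WT lungs 1 gene in place of 3 was called at an adjusted p under 0.01 and 1 above an absolute log2 fold change of 1, and 4 with array weights, the one added being Plin1 (adjusted p = 0.0322). Between 16-week Zmpste24-/- and 82-week WT saline lungs 1 in place of 3 was called at the stricter p, 1 at the fold threshold, 0 of these 3 but Fabp4 in their place with the replicate block (1 in all) and 0 in a fit of the compared groups alone. After bleomycin 1 in place of 2 was called at the stricter p, 1 at the fold threshold and 1 with the replicate block, and 4 with array weights, where Retn and Lep were added. Retn was also added by quantile normalization and by median centring. With an array left out the counts ran from 1 to 3 with age in WT lungs, from 1 to 3 between 16-week Zmpste24-/- and 82-week WT lungs after saline and from 1 to 2 after bleomycin, and stayed at 0 in the other 5 comparisons. The causes of these changes were not tested.

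Same-numbered arrays of a set correlated in their deviations at r = -0.38 to 0.45, over 0.1 in 8 of 60 pairs, so the numbers do not pair the arrays. The block changed calls only in the 2 comparisons just named, where Fabp4 was called in the saline one (adjusted p = 0.0446), lower in Zmpste24-/- lungs, and Car3, Cidec and Retn were not (adjusted p = 0.106, 0.254 and 0.0618), and where Adipoq was not called in the bleomycin one (adjusted p = 0.283).

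Counts over all genes varied more. Leaving arrays out aside, they ran from 416 to 4821 (1802 as reported) with age in WT lungs, from 412 to 3245 (3030) and from 493 to 5672 (3118) between 16-week Zmpste24-/- and 82-week WT lungs after saline and after bleomycin, from 77 to 1337 (223), 123 to 2681 (2350) and 40 to 389 (160) for bleomycin in 82-week WT, 16-week Zmpste24-/- and 16-week WT lungs, from 0 to 4 (2) for genotype in set 1, and from 66 to 499 (309) for the difference of bleomycin effects. With an array left out, genotype in set 1 reached 595 without replicate 2 of the Zmpste24-/- saline group. Each group has 3 arrays, and Lep, Adipoq, Ucp1 and Cidea were dim, which limits the precision of their fold changes.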
